A study of Mus musculus with 14 samples.

Results

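The 39 protein-coding HOX genes of the mouse were followed in all 14 RNA-seq libraries of embryonic kidney cells. They were taken by their symbols, Hoxa to Hoxd followed by a paralogue number, and all 39 were present among the 55335 genes of the ureteric bud (UB) table and the 52636 genes of the metanephric mesenchyme (MM) table. HOX genes encode homeodomain transcription factors that give cells a position along the body axis. They lie in clusters in which the order of the genes goes with the order of their expression domains, so that genes at the 3′ end of a cluster (low paralogue numbers) are used in anterior regions and genes at the 5′ end (high paralogue numbers) in posterior ones. In the kidney the paralogues of group 11 (Hoxa11, Hoxc11 and Hoxd11) act in the mesenchyme together with Eya1 and Pax2 to activate Six2 and Gdnf, and Gdnf draws out the ureteric bud. The promoter of Hoxb7 is the usual driver of transgenes in the ureteric bud.

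The study asked which transcripts depend on MAPK/ERK signaling in each of these lineages. UB dko cells (n = 4) came from E12.5 embryos that were HoxB7Cre-GFP;Mek1fl/fl;Mek2-/-, and UB control cells (n = 4) from E12.5 embryos that were HoxB7Cre-GFP;Mek1fl/+ and carried Mek2+/- (controls 1, 3 and 4) or Mek2+/+ (control 2). MM dko cells (n = 3) came from E13.5 embryos that were Six2-TGC;Mek1fl/fl;Mek2-/-, and MM control cells (n = 3) from E13.5 embryos that were Six2-TGC;Mek1fl/+;Mek2+/+. All mice had a mixed C57BL6/Rcc and 129/SvEv background, the kidneys of an embryo were pooled, and GFP-positive cells were sorted. By these labels every control carried the Cre and 1 floxed Mek1 allele. The study's methods also list UB controls with Mek1+/+;Mek2+/- and MM controls with Mek2+/-, genotypes that no label gives. The Cre of the UB mice is driven by the Hoxb7 promoter, and the Cre of the MM mice by Six2. The Mek genes encode the kinases that activate ERK.

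Libraries held 4857053 to 7493144 counts in the UB, 5880919 to 6442484 in MM controls and 1443582 to 3438297 in MM dko cells. Values below are normalized counts, which are counts scaled to the mean library of the tissue, unless a sentence gives another scale. Map2k2 (Mek2), deleted in the germ line of dko embryos, had 11.4, 24.7 and 16.97 normalized counts in MM dko libraries, against 233, 279 and 211 in MM controls. It had 282, 43.6, 302 and 65.8 in the libraries labelled UB dko 1 to 4, against 200, 312, 400 and 217 in UB controls. By this gene the libraries labelled UB dko 1 and 3 lay within the control range and do not bear out their label. Summed markers of the UB, given below, were lower in all 4 libraries labelled UB dko than in any UB control. Map2k1 (Mek1) had 165, 145 and 112 in MM dko, against 76.2, 83.9 and 99.8 in MM control, and 170.2 to 236 in UB dko, against 125 to 184 in UB control, but its gene counts also hold reads from outside the floxed part and check nothing. The MM dko libraries and those labelled UB dko 2 and 4 also had a trend with base composition. In them the 20% of genes with the lowest GC content stood above the 20% with the highest by 1.62 to 3.23 on the log2 scale, against -0.28 to 0.46 in the other 9 libraries. Map2k2 was low in the same libraries, its values carry no GC offsets, and genotype and this trend cannot be told apart in them. HOX genes are GC-rich, with a median of 53.5% of the bases of the longest transcript against 48.7% over protein-coding genes. Calls of HOX genes are therefore also given with per-library offsets for GC content and length where these change them. In bulk samples fewer cells of a type and less RNA per cell cannot be told apart.

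In control cells the lineages differed in how the HOX level was shared among the clusters, with HOXB and HOXD on in both. On the scale of CPM (counts scaled to a common library size) per kilobase of exon, which corrects for depth and gene length, 30 of the 39 genes reached a mean level of at least 1 in MM controls, and 18 did in UB controls. The HOXA cluster (chromosome 6) made up 31.5% ± 1.07 of the summed HOX level in MM controls (SD, n = 3) and 1.96% ± 0.596 in UB controls (SD, n = 4). The HOXC cluster (chromosome 15) made up 26.0% ± 2.41 in MM controls and 0.422% ± 0.157 in UB controls. The HOXB cluster (chromosome 11) made up 21.2% ± 2.56 in MM controls and 70.9% ± 1.99 in UB controls. The HOXD cluster (chromosome 2) was split, at 21.3% ± 0.919 in MM controls and 26.7% ± 2.46 in UB controls. The ranges of the libraries did not overlap for any of the 4 clusters.

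**Figure D1:**
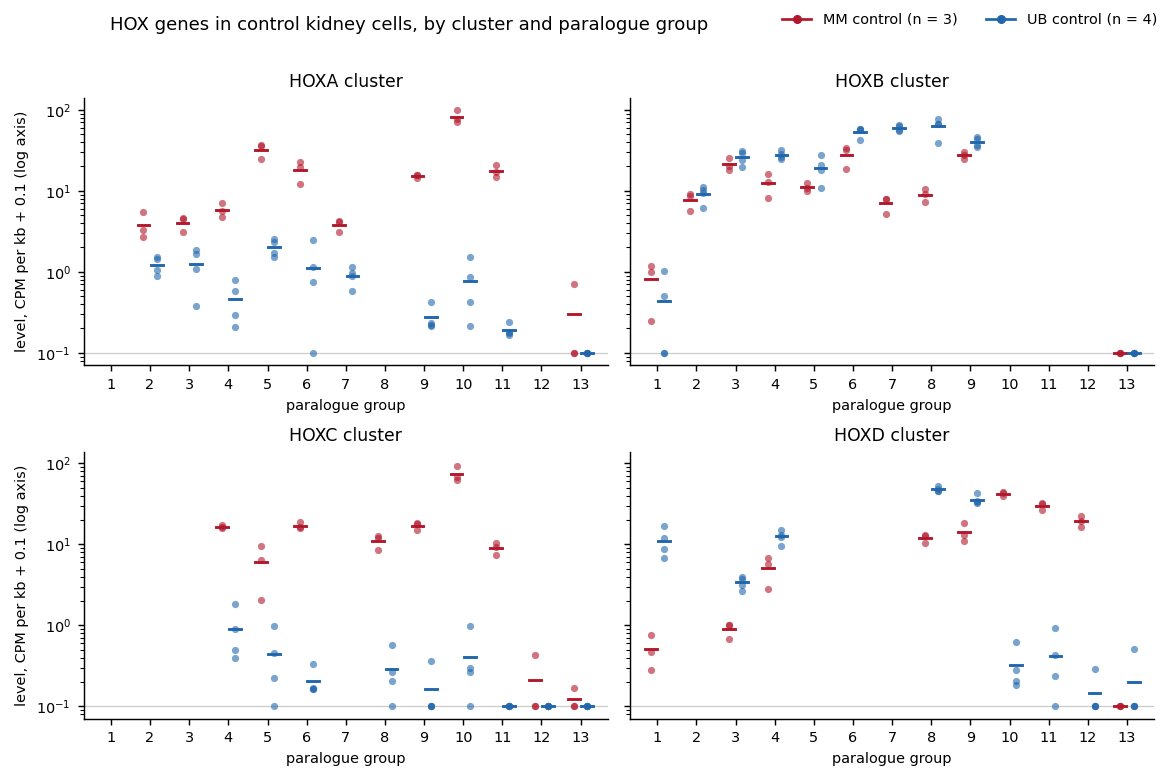
Level of HOX genes in control cells, as CPM per kilobase of exon plus 0.1 on a log axis, by paralogue group; points are libraries (MM control n = 3, UB control n = 4), bars are means, and the grey line is a level of 0. HOXA and HOXC genes sat high in MM control and low in UB control, and in HOXD the order of the tissues turned round between groups 9 and 10.

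The highest HOX genes of the MM were all of paralogue group 10. Hoxa10 had levels of 71.0, 76.1 and 99.3 CPM per kilobase in MM controls, against 0.116, 1.45, 0.328 and 0.772 in UB controls. Hoxc10 had 62.6, 67.5 and 92.7 in MM controls, against 0.198, 0.165, 0.882 and 0 in UB controls. Hoxd10 had 39.1, 42.7 and 43.7 in MM controls, against 0.104, 0.52, 0.0843 and 0.185 in UB controls. Hoxa10 and Hoxc10 did not differ beyond their spread (82.1 ± 15.06 and 74.3 ± 16.1, SD, n = 3), and both lay above Hoxd10 in every library. The 3 genes of group 10 together held 34.1% of the HOX level of MM controls and 0.286% of that of UB controls.

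The highest HOX genes of the UB were neighbours in HOXB. Hoxb8 had 7.10, 8.95 and 10.4 CPM per kilobase in MM controls, against 39.03, 66.7, 76.3 and 67.4 in UB controls. Hoxb7 had 7.93, 7.81 and 5.02 in MM controls, against 56.9, 65.4, 55.2 and 63.6 in UB controls. Hoxb6 had 31.5, 33.7 and 18.4 in MM controls, against 41.9, 57.7, 58.5 and 56.4 in UB controls. These 3 did not differ from each other beyond their spread within the UB, at 62.3 ± 16.1, 60.3 ± 4.97 and 53.6 ± 7.90 (SD, n = 4). All UB libraries carry a transgene with the Hoxb7 promoter, and whether any of its reads count towards Hoxb7 was not tested.

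The comparison of MM control with UB control tested 34 HOX genes in edgeR's quasi-likelihood test over 14078 genes, of which 31.7% were called at an adjusted p (Benjamini-Hochberg over all genes) under 0.05. Of the HOX genes 19 were higher in MM control, against 15% of all genes, and 11 were higher in UB control and so lower in MM control, against 16.7% of all genes. The median log2 fold change was 2.00 over the 34 HOX genes and -0.01 over all genes tested. The 19 were Hoxa2 to Hoxa7, Hoxa9, Hoxa10 and Hoxa11, all 7 HOXC genes tested, and Hoxd10, Hoxd11 and Hoxd12. The 11 were Hoxb4 to Hoxb9 and Hoxd1, Hoxd3, Hoxd4, Hoxd8 and Hoxd9. Hoxb2 and Hoxb3 were among those without a call. The tissues also differ in stage, transgene and sort, and these cannot be told apart from the lineage. All but 3 of these calls (Hoxa2, Hoxb5 and Hoxb9) held under all 13 alternatives run.

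Hoxa11, a group 11 factor of the kidney mesenchyme, had 20.9, 16.9 and 14.5 CPM per kilobase in MM controls, against 0.0828, 0.138, 0.0669 and 0.0736 in UB controls (log2 fold change 7.45, SE 0.41, adjusted p = 3.7e-11). Its paralogue Hoxd11 had 32.0, 31.8 and 26.6 in MM controls, against 0.135, 0.823, 0.327 and 0 in UB controls (log2 fold change 6.48, SE 0.52, adjusted p = 1.5e-05). The third paralogue, Hoxc11, had 315 counts over the MM controls and 0 over the UB controls, which makes it at least 146-fold higher in MM control against a floor of 3 counts over the UB control group. Hoxd12 had 850 counts in MM controls and 3 in UB controls, a ratio of 393 in CPM (95% exact interval 134 to 1910, for counting error only). For Hoxb7 the log2 fold change of MM control over UB control was -3.12 (SE 0.20, adjusted p = 4.13e-10). The largest difference towards the UB was that of Hoxd1, at -4.73 (SE 0.51, adjusted p = 4.78e-07), with 0.405 ± 0.239 CPM per kilobase in MM controls and 10.97 ± 4.28 in UB controls.

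The turn in HOXD lay between adjacent genes. Hoxd9 had 13.01, 18.3 and 10.8 CPM per kilobase in MM controls, against 34.2, 33.04, 32.7 and 42.7 in UB controls, and the next gene towards the 5′ end of the cluster was Hoxd10, whose UB levels were all under 1. The annotated genes are 2621 bp apart, with Hoxd10 at 74691924 to 74695105 and Hoxd9 at 74697727 to 74700208 on the plus strand of chromosome 2 (GRCm38). In the MM the same step went the other way, with Hoxd10 above Hoxd9 in every control library. Hoxd1, Hoxd3, Hoxd4, Hoxd8 and Hoxd9 were thus higher in the UB, and Hoxd10, Hoxd11 and Hoxd12 in the MM. HOXB has no genes of groups 10 to 12, and 8 of its genes, Hoxb2 to Hoxb9, reached a mean level of 1 in UB controls.

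The promoters on either side of this step are given because the UB levels differ so much across them (RefSeq, GRCm38.p6, 250 bases before to 50 after the start, plus strand, capitals marking CpG dinucleotides; the Hoxd9 window is chr2:74697513-74697812 and the Hoxd10 window chr2:74691641-74691940).
Hoxd9: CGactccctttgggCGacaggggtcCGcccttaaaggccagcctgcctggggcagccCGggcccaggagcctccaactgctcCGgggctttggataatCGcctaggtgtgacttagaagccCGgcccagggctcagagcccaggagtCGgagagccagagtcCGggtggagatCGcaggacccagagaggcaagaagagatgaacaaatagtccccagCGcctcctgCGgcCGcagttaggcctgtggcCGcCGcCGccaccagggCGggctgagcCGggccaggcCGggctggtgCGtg
Hoxd10: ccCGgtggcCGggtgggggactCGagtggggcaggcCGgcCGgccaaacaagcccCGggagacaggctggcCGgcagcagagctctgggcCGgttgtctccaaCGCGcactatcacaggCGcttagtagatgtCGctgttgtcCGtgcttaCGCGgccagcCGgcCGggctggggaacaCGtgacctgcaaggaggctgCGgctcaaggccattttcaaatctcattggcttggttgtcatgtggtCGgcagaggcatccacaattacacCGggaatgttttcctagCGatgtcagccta
The Hoxd9 window holds 20 CpGs and the Hoxd10 window 22, and 26.5% and 23.1% of 32851 promoters of this length held as many. On both strands, the Hoxd10 window holds CCAAT once and CACGTG once, which occur in 37.4% and 7.2% of all promoters, and neither is in the Hoxd9 window. TATAAA (13.6% of all promoters) and TGATNNAT (8.8%) are in neither window. Of the 39 genes 22 had a promoter entry, and these matches are descriptions of letters, not of factor binding.

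Members of group 13, used at the posterior end of the body, were close to 0 in both tissues. Hoxb13 had 0 counts in the controls of both tissues, which allows up to 0.173 CPM in MM control and 0.124 CPM in UB control from a floor of 3 counts over the group. Hoxa13 had 9 counts over MM controls and 0 over UB controls, Hoxc13 had 1 and 0, and Hoxd13 had 0 and 6. Hoxc12 had 2 counts over MM controls and 0 over UB controls.

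Without GC offsets the share of HOX genes called in MM dko was not above that of all genes. With the offsets the share called higher was above that of all genes. Both the share and the direction of the calls thus changed with the offsets. Of the 39 genes, 31 passed the filter on low counts and 8 did not, among them the 4 members of group 13. In edgeR's quasi-likelihood test over 12431 genes, 14 HOX genes (45.2%) were called, 8 higher and 6 lower in MM dko, against 52.9% of all genes called, 25% higher and 27.9% lower. The median log2 fold change was 0.17 over the 31 genes and -0.05 over all genes. At a fold of at least 2 as well, 6 of the 31 were called, against 38.8% of all genes. The dko and control libraries did not overlap for 11 of the 31 that were higher and 7 that were lower in MM dko, and for 60.5% of all genes tested. With GC content and length offsets 15 of the 31 were higher and 0 lower in MM dko, against 7.55% and 17.4% of all genes, and the HOX median was 0.70, so the 6 lower calls rest on scaling without these offsets.

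**Figure D2:**
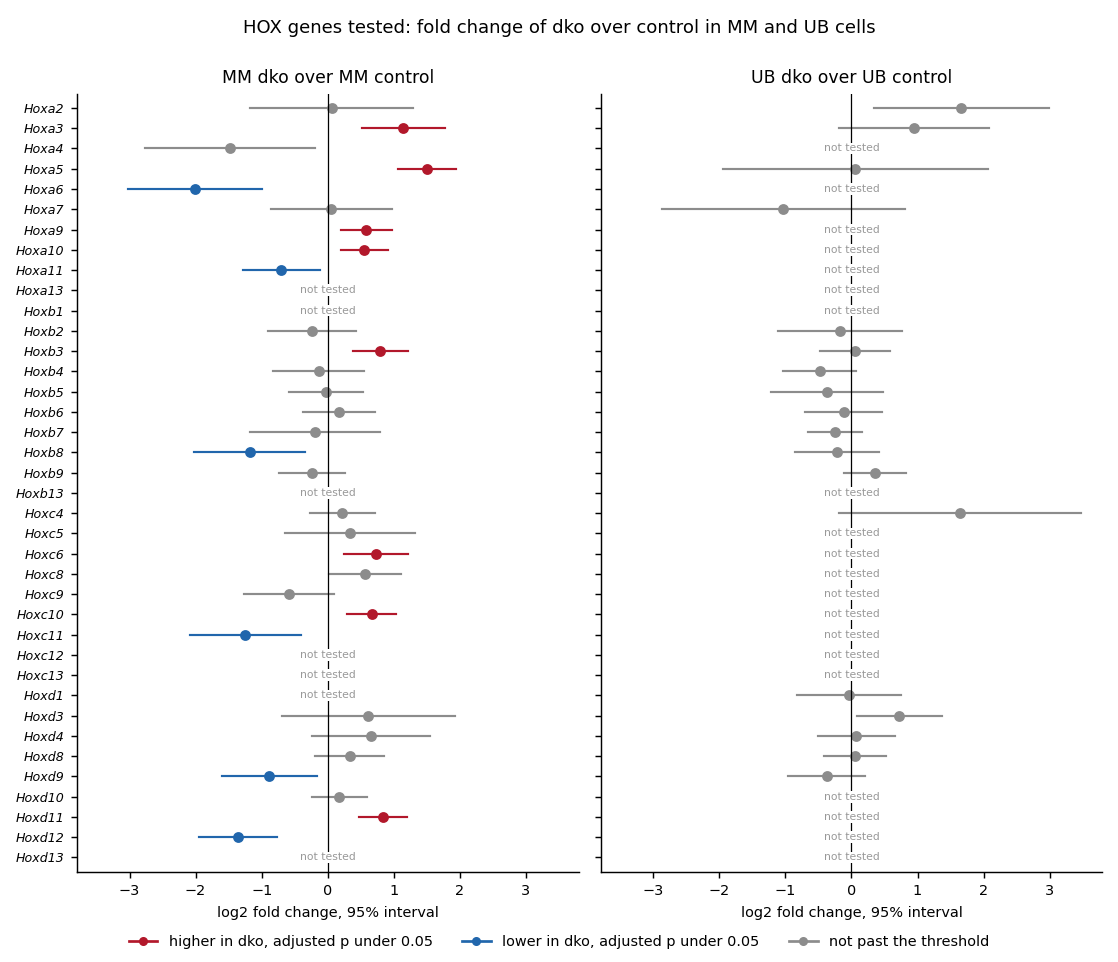
Log2 fold change of HOX genes, MM dko over MM control (left) and UB dko over UB control (right), with 95% intervals from edgeR; red and blue mark adjusted p under 0.05. In MM dko 8 genes were higher and 6 lower without GC offsets, and in UB dko 0 were called.

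Hoxa5, a regulator of patterning in lung and axial skeleton, had the largest rise. It had 749, 580 and 655 normalized counts in MM dko, against 268, 259 and 173 in MM control. Every MM dko library was above every control, and the log2 fold change was 1.51 (SE 0.20, adjusted p = 4.82e-05). Hoxa3, which acts in the pharyngeal region, had 237, 127 and 236 in MM dko, against 103, 105 and 67.8 in MM control (log2 fold change 1.14, SE 0.29, adjusted p = 0.00486). These were the only HOX genes that were called in the same direction under all 15 alternatives, and with the GC offsets they stood at 1.81 and 1.97.

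The highest HOX genes of the MM rose by less. Hoxa10 had 1744, 1396 and 1416 normalized counts in MM dko, against 904, 963 and 1233 in MM control, and the groups did not overlap (log2 fold change 0.56, SE 0.17, adjusted p = 0.0129). Hoxc10 had 845, 819.9 and 925 in MM dko, against 465, 499 and 672 in MM control (0.66, SE 0.17, adjusted p = 0.00585). Hoxd10 gave no call, with 276, 389 and 334 in MM dko, against 276, 300.3 and 301 in MM control (0.18, 95% interval -0.24 to 0.59). The call of Hoxa10 was lost without MM control 1, MM control 2 or MM dko 1, with an adjusted p of up to 0.0779.

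The same direction was found for Hoxa9, Hoxb3 and Hoxc6. Hoxa9, a regulator of limb and blood progenitors, had 519, 403 and 531 normalized counts in MM dko, against 337, 337 and 299 in MM control (0.59, SE 0.18, adjusted p = 0.0139), and without MM dko 3 its adjusted p was 0.0704. Hoxb3, a paralogue of Hoxa3, had 545, 551 and 711 in MM dko, against 333, 421 and 288 in MM control (0.80, SE 0.19, adjusted p = 0.00352). Hoxc6 had 245, 329 and 219 in MM dko, against 155, 174 and 144 in MM control (0.73, SE 0.23, adjusted p = 0.0147), and without MM control 1 its adjusted p was 0.0515. The dko libraries lay above all controls for each of the 3, and 60.5% of all genes tested had groups that did not overlap. The GC offsets gave log2 fold changes of 1.33 for Hoxa10, 1.65 for Hoxb3, 1.49 for Hoxc6, 1.14 for Hoxc10 and 0.68 for Hoxa9. When scaled by library size only, none of these 5 was called. Of the exon bases of Hoxb3 52.9% overlap an antisense gene and of those of Hoxa3 27.1% overlap other genes, and whether counting used strand is not given in the sources used here.

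The 3 paralogues of group 11 did not move together. Hoxd11 had 869, 767 and 981 normalized counts in MM dko, against 524, 518 and 425 in MM control (log2 fold change 0.84, SE 0.17, adjusted p = 0.000918). Hoxa11 had 84.3, 84.8 and 112 in MM dko, against 186, 149 and 126 in MM control (-0.70, SE 0.27, adjusted p = 0.0426). Hoxc11 had 32.4, 35.3 and 22.1 in MM dko, against 72.8, 81.8 and 55.7 in MM control (-1.25, SE 0.39, adjusted p = 0.016). All 3 had groups that did not overlap, as had 60.5% of all genes tested. Hoxd11 has the lowest GC content of the HOX genes (42.4%), Hoxa11 has 53.4% and Hoxc11 55.6%. With the GC offsets none of the 3 was called, at -0.12 for Hoxd11, 0.16 for Hoxa11 and -0.01 for Hoxc11. The call of Hoxa11 held when MM control 3 was left out and was lost without any other single library (adjusted p up to 0.186), and also with DESeq2 (0.0931) and with RLE scaling in edgeR (0.0627). That of Hoxc11 was lost without MM control 1, MM control 2 or MM dko 3 (up to 0.0784).

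**Figure D3:**
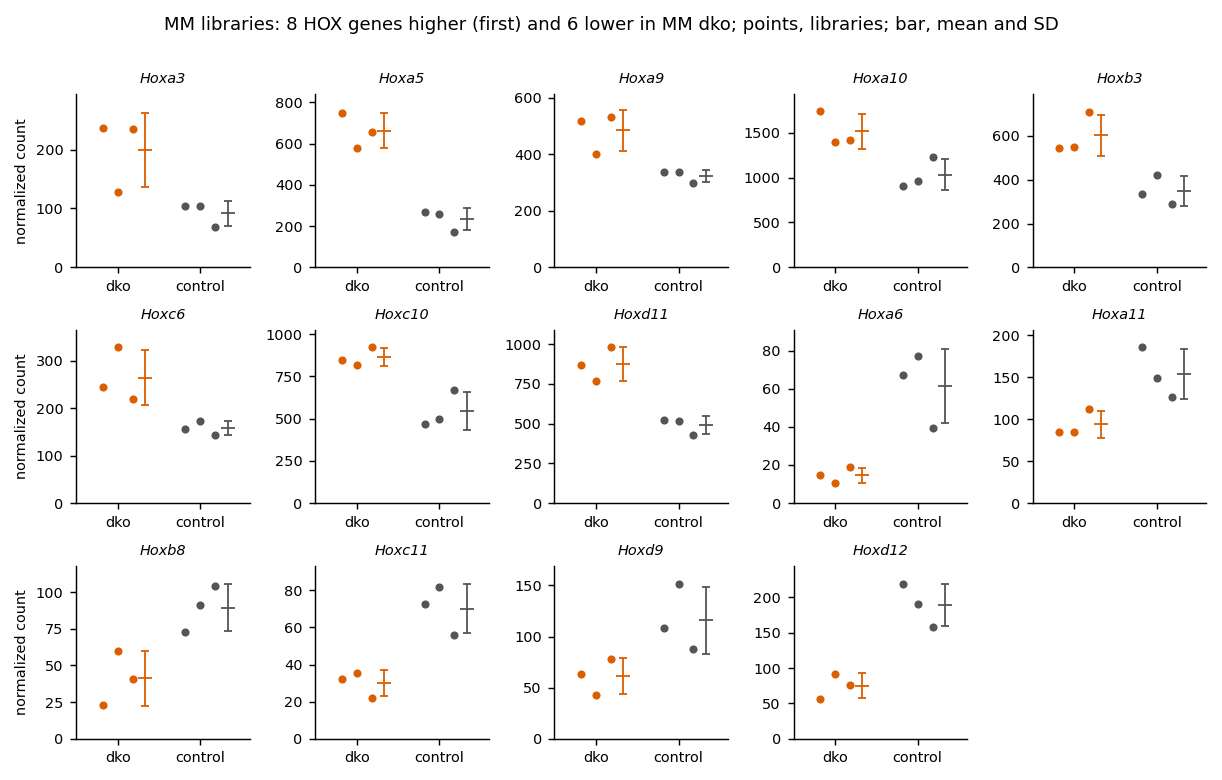
Normalized counts in each MM library of the 14 HOX genes called in MM dko; points are libraries (n = 3 each, dko left and control right), and bars are means with SD. The first 8 panels show genes whose dko libraries all lie above the controls and the last 6 genes whose dko libraries all lie below them. Of all genes tested in the MM 60.5% had groups that did not overlap.

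The remaining lower genes were Hoxa6, Hoxb8, Hoxd9 and Hoxd12. Hoxa6 had 14.6, 10.6 and 18.7 normalized counts in MM dko, against 67.3, 77.1 and 39.7 in MM control, the largest fall among the HOX genes (-2.01, SE 0.47, adjusted p = 0.00283). Hoxd12, a neighbour of Hoxd11, had 56.8, 91.9 and 76.4 in MM dko, against 218, 190 and 159 in MM control (-1.36, SE 0.28, adjusted p = 0.00109). Hoxb8 had 22.7, 60.1 and 40.7 in MM dko, against 72.8, 91.3 and 104 in MM control (-1.18, SE 0.39, adjusted p = 0.0211). Hoxd9 had 63.3, 42.4 and 78.1 in MM dko, against 108, 152 and 87.7 in MM control (-0.88, SE 0.34, adjusted p = 0.0392). Of these 4, Hoxa6 and Hoxd12 stayed called when any single library was left out. Hoxb8 was lost in 4 of those 6 fits (adjusted p up to 0.103) without MM control 2, MM control 3, MM dko 1 or MM dko 3, and Hoxd9 in 4 (up to 0.198) without MM control 1, MM control 2, MM dko 1 or MM dko 2. Hoxd9 was also lost with DESeq2 (0.0732) and with RLE scaling (0.0538). With the GC offsets Hoxa6, Hoxd12 and Hoxb8 gave no call (-0.39, -0.51 and -0.30), and Hoxd9 was higher in MM dko, at 1.14 (adjusted p = 0.0279).

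Direction in the MM went with base composition. The 6 lower genes had 53.4% to 61.0% GC in their longest transcripts and the 8 higher genes 42.4% to 54.1%. Over the 31 genes the log2 fold change and GC content had a Pearson r of -0.52 (Spearman rho -0.52), and with the offsets 0.23 (0.12). These are correlations across genes of the same 6 libraries, and genes are not independent replicates.

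**Figure D4:**
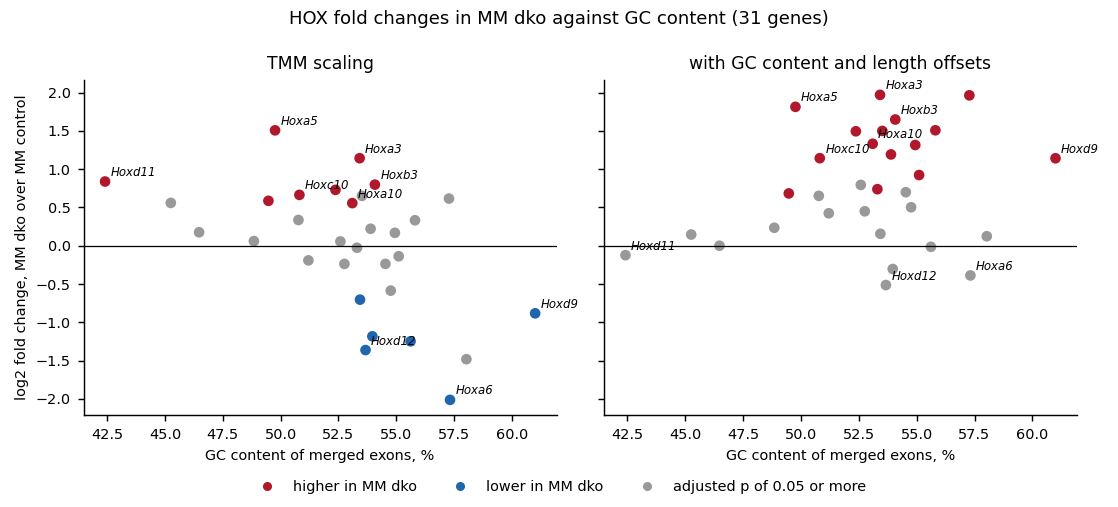
Log2 fold change of MM dko over MM control against GC content for the 31 HOX genes tested, with TMM scaling (left) and after per-library GC and length offsets (right). GC content is that of the longest transcript of each gene, although the axis names merged exons. Each point is a gene, coloured by its call. On the left the lower genes lie at 53.4% GC or more, and on the right 15 genes are higher and 0 lower.

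Of the 17 tested genes without a call, Hoxa4 came nearest, with 9.73, 24.7 and 6.79 normalized counts in MM dko, against 43.5, 28.4 and 33.3 in MM control (-1.48, SE 0.60, adjusted p = 0.0509). Hoxc8 followed, with 183, 152 and 190 in MM dko, against 139, 129 and 90.2 in MM control (0.56, SE 0.26, adjusted p = 0.079). Their groups did not overlap, as for 60.5% of all genes tested, but both adjusted p-values missed the threshold. With the offsets their log2 fold changes were 0.12 and 0.15. Hoxb7 had 21.1, 49.5 and 40.7 in MM dko, against 47.6, 46.7 and 29.4 in MM control (-0.19, 95% interval -1.17 to 0.79). Hoxb5 and Hoxb6 had intervals of -0.59 to 0.54 and -0.37 to 0.71. With the GC offsets Hoxb4, Hoxb5, Hoxb6, Hoxc4, Hoxd3, Hoxd4 and Hoxd8 were called higher as well, at 0.74 to 1.96. Exons of other genes on the same strand, among them each other's and those of Gm28230, overlap 62.3% of the exon bases of Hoxd3 and 52.3% of those of Hoxd4, so their counts are uncertain.

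Summed levels of stroma, neural, early nephron and ureteric bud markers did not overlap between the MM groups. Those of nephron progenitor, endothelium, erythroid and leukocyte markers overlapped. Of 8 stroma markers 7 were tested, 2 were higher and 1 lower in MM dko, against 25% and 27.9% of all genes, and their summed level was 839 to 1505 normalized counts in MM dko, against 530 to 807 in MM control. Foxd1, the defining factor of the cortical stroma, had 551, 626 and 411 in MM dko, against 163, 196 and 200 in MM control, and Tcf21 had 373, 597 and 258, against 148, 158 and 72.9. Nephron progenitor markers summed to 5711 to 8234 in MM dko, against 5928 to 6993 in MM control, with 2 of 7 higher and 2 lower. Neural markers summed to 270 to 457 in MM dko, against 95.4 to 161 in MM control, with 2 of 2 tested higher and Sox10 at 0 in all MM libraries. Early nephron markers summed to 1594 to 1747 in MM dko, against 2232 to 3147 in MM control, with 0 of 5 higher and 3 lower. Ureteric bud markers summed to 315 to 424 in MM dko, against 712 to 884 in MM control, with 0 of 4 tested higher and 1 lower. These sums carry no GC offsets. With the offsets 3 stroma markers were higher and 0 lower in MM dko, 1 and 0 of the nephron progenitor markers, and 0 and 0 of the neural markers. Of the early nephron markers 0 were higher and 1 lower, and of the ureteric bud markers 0 and 1, against 7.55% and 17.4% of all genes. The part of these cells in the HOX changes was not tested.

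In the UB no HOX gene was called. Of the 39 genes 19 passed the filter, among them Hoxb2 to Hoxb9, Hoxd1, Hoxd3, Hoxd4, Hoxd8 and Hoxd9. In edgeR's quasi-likelihood test over 13425 genes 0 of the 19 had an adjusted p under 0.05, against 3.93% of all genes, and 2 (Hoxa2 and Hoxd3) had an unadjusted p under 0.05. DESeq2 called 1 of them, Hoxa2, against 9% of all genes, and voom with quality weights called 3 lower (Hoxb4, Hoxb6 and Hoxb8), against 16.5% of all genes. The median log2 fold change was 0.05 over the 19 genes and 0.07 over all genes. The count of 0 changed when the libraries labelled UB dko 1 and 3 were left out, and which trait of these libraries goes with that was not tested. With only UB dko 2 and 4 against all UB controls, an alternative chosen after seeing the data, 4 genes of HOXB were lower in UB dko, against 19.9% of all genes. These were Hoxb4 (-0.78, adjusted p = 0.0037), Hoxb5 (-0.90, 0.0399), Hoxb6 (-0.62, 0.0162) and Hoxb8 (-0.72, 0.0153), each by edgeR's quasi-likelihood test. UB dko 2 and 4 are the libraries in which Map2k2 was low, and also those with the GC trend. With the GC offsets the same 2 libraries gave 0 lower and 5 higher HOX genes, against 13.2% lower and 8.45% higher of all genes, namely Hoxb3 (0.75), Hoxb9 (0.94), Hoxd3 (1.64), Hoxd8 (1.16) and Hoxd9 (1.09). The calls with and without the offsets fell on different genes. With them Hoxb4 (-0.08), Hoxb5 (-0.37), Hoxb6 (0.16) and Hoxb8 (-0.11) gave no call. Without them Hoxb3 (0.17), Hoxb9 (0.47), Hoxd3 (0.72), Hoxd8 (0.36) and Hoxd9 (-0.29) gave none. The label and the GC trend cannot be told apart in these libraries. Markers of the UB summed to 18298 to 20381 normalized counts in UB dko, against 23382 to 24392 in UB control, with 0 of 11 higher and 2 lower, and early nephron markers to 2677 to 3297, against 4224 to 4984, with 0 of 5 higher and 1 lower. With the GC offsets and all UB libraries 4 UB markers were higher and 4 lower, and 1 early nephron marker was higher and 1 lower, against 9.86% of all genes called. The early nephron list includes a gene that the study gives as enriched in UB tips and lower in UB dko. The sum of that list in UB cells is therefore not a measure of early nephron cells alone. The part of these markers in the HOX values was not tested.

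**Figure D5:**
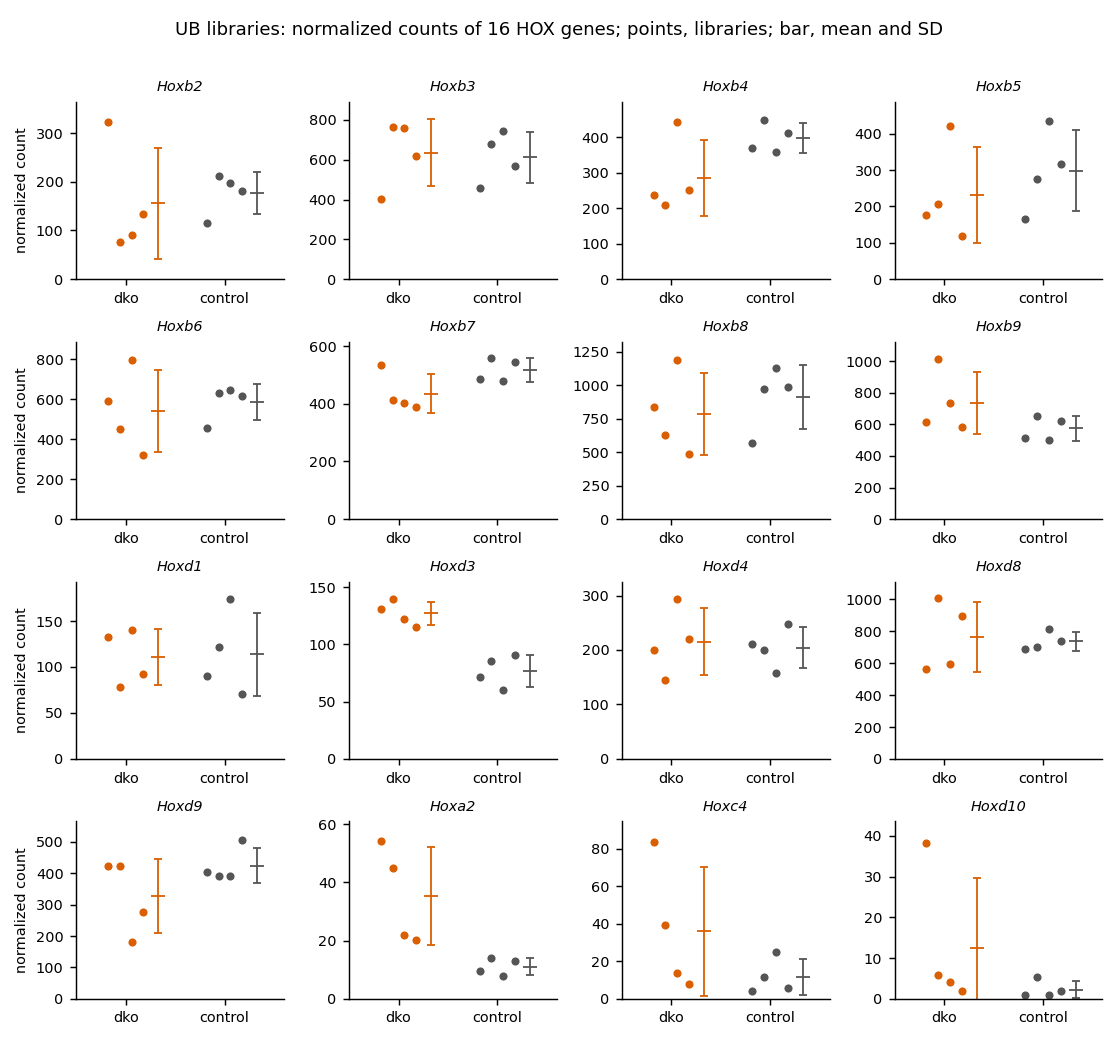
Normalized counts in each UB library of 16 HOX genes, those of HOXB and HOXD that are on in the UB with Hoxa2, Hoxc4 and Hoxd10; points are libraries (n = 4 each, dko left in order of label and control right), bars are means with SD, and a bar that reaches below 0 is cut at the axis. The groups overlap except for Hoxa2 and Hoxd3, and for Hoxc4 and Hoxd10 the library labelled UB dko 1 is the highest.

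Hoxb7 had 536, 412, 403 and 389 normalized counts in UB dko, against 485, 561, 478 and 546 in UB control. All UB dko libraries but the one labelled UB dko 1 lay below every control. The log2 fold change was -0.25 (SE 0.19, 95% interval -0.66 to 0.16, adjusted p = 0.479), so a fall by more than 0.66 lies outside the interval of this fit over all libraries. With UB dko 2 and 4 only, chosen after seeing the data, it was -0.37 (95% interval -0.73 to -0.02, adjusted p = 0.089 by edgeR's test). The GC offsets gave -0.02 with all libraries and 0.01 with UB dko 2 and 4 only. Hoxb8, among the 3 highest HOX genes of the UB, had 841, 632, 1193 and 485 in UB dko, against 568, 975, 1127 and 987 in UB control (-0.22, interval -0.85 to 0.42). Hoxb6 had 591, 449, 798 and 320.1 in UB dko, against 454, 629, 645 and 617 in UB control (-0.12, interval -0.70 to 0.46). For Hoxb8 and Hoxb6 the SD of the UB dko libraries exceeded the difference between the means.

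The other genes of HOXB and HOXD that are on in the UB gave no call with all libraries either. Hoxb9 had 613, 1015, 734 and 584 in UB dko, against 516, 655, 502 and 623 in UB control (0.36, interval -0.11 to 0.83). Hoxb4 had 237, 209, 441 and 252 in UB dko, against 370, 449, 357 and 411 in UB control (-0.48, interval -1.03 to 0.07), and without the library labelled UB dko 3 it was called lower (-0.78, adjusted p = 0.0443). Hoxd8 had 564, 1006, 594 and 897 in UB dko, against 687, 704, 817 and 738 in UB control (0.05, interval -0.42 to 0.53). Hoxd9 had 422, 423, 182 and 277 in UB dko, against 404, 392, 391 and 507 in UB control (-0.38, interval -0.96 to 0.21). Neither Hoxd8 nor Hoxd9 was called with the GC offsets, at 0.56 and 0.48. The fold changes of Hoxb2, Hoxb3, Hoxb5, Hoxd1 and Hoxd4 lay between -0.37 and 0.07, and those of Hoxa3, Hoxa5 and Hoxa7, all with mean values under 100, between -1.04 and 0.95.

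Hoxa2 and Hoxd3 were the members whose UB groups did not overlap, against 15.2% of all genes tested. Hoxd3 had 130.5, 139, 123 and 115 normalized counts in UB dko, against 71.1, 85.7, 60.1 and 90.8 in UB control (0.72, SE 0.29, interval 0.08 to 1.36, adjusted p = 0.184), and with the GC offsets its adjusted p was 0.0472 at 1.19, the only HOX gene called in that fit, against 9.86% of all genes. Hoxa2, a gene of the hindbrain and neural crest, had 54.1, 45.0, 21.8 and 20.3 in UB dko, against 9.41, 13.995, 7.73 and 13.1 in UB control (1.67, SE 0.61, interval 0.35 to 2.99, adjusted p = 0.142). Neither passed the threshold of edgeR's test over all genes. The counts of Hoxd3 are uncertain, because exons of other genes on the same strand overlap 62.3% of its exon bases.

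Some HOX genes that are nearly off in the UB were highest in 1 of the libraries labelled UB dko 1 and 3. In the library labelled UB dko 1 this was so for Hoxc4 and Hoxd10. Hoxc4 had 83.5 normalized counts in it, 39.2, 13.6 and 8.10 in the other UB dko libraries, and 4.18, 11.4, 24.9 and 5.61 in UB control. Hoxd10 had 38.2 there, 5.81, 4.09 and 2.03 in the other UB dko libraries, and 1.05, 5.25, 0.858 and 1.87 in UB control. Hoxa4 was highest in the library labelled UB dko 3, with 25.5, 5.81, 43.6 and 0 in UB dko 1 to 4, against 0.936 to 6.12 in UB control. Hoxa6, Hoxa10, Hoxc5, Hoxc8, Hoxc10 and Hoxd11, also nearly off, were each highest in a UB control library instead. Hoxa10 had 26.2 in UB control 2 and 4.77 in the library labelled UB dko 1, and Hoxc10 had 9.44 in UB control 3 and 0. Genes of the mesenchyme and stroma were high in the library labelled UB dko 1, with Six2 at 68.4 against 0 in each of the other UB dko libraries and 10.3 to 58.4 in UB control. Tcf21 was at 63.7 there, 0 in each of the other UB dko libraries and 2.09 to 5.61 in UB control, and Foxd1 at 60.5, 9.12 to 23.2 and 1.05 to 8.75. The summed nephron progenitor markers were at 208, 39.2, 148 and 42.5 in UB dko 1 to 4, against 62.7 to 124 in UB control, so those labelled UB dko 1 and 3 lay above every control. Summed stroma markers were at 473, 90.04, 230 and 87.1, against 91.7 to 318. Without the library labelled UB dko 1 the log2 fold change of Hoxc4 was 0.78, against 1.64 with it. The part of these cells in the HOX values was not tested.

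The effect of dko was compared between the tissues in 1 model over all 14 libraries. Of the 34 HOX genes tested 1 was called, Hoxc10, against 6.14% of 15225 genes. Its log2 effect in MM minus that in UB was 3.78 (SE 1.11, adjusted p = 0.0488). The UB side holds 1 count over the UB dko libraries and 15 over the UB control libraries, so the fitted size rests on few counts. The call was lost in 12 of the 14 fits that left out 1 library. Where the call is absent a difference between tissues is not shown. A call does not show that 1 tissue lacks a response, and in the UB Hoxc10 was not tested on its own. No HOX gene can thus be said to respond in only 1 of the tissues.

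Partners of HOX proteins were read from lists that were likewise chosen with earlier results known. The TALE proteins (PBX, MEIS, PKNOX) bind DNA together with HOX proteins. Of 8 TALE genes tested in the MM 4 were higher and 0 lower in MM dko, against 25% and 27.9% of all genes, and with the GC offsets 2 were higher and 0 lower, against 7.55% and 17.4%. Of 7 tested in the UB 0 were called, against 3.93% of all genes, and 1 was higher with the offsets, against 9.86% called. Pbx3 had 641, 629 and 728 normalized counts in MM dko, against 318, 298 and 292 in MM control (1.14, SE 0.17, adjusted p = 8.43e-05), and Meis1 had 428, 565 and 743, against 376, 221 and 330 (0.91, SE 0.24, adjusted p = 0.00556). Every MM dko library was above every control for both, and groups did not overlap for 60.5% of all genes tested. Neither was called with the GC offsets, at -0.37 for Pbx3 (adjusted p = 0.106) and -0.09 for Meis1 (adjusted p = 0.819), and Pbx2 was called higher only with them (0.79, adjusted p = 0.00148, against -0.29 without).

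Polycomb proteins keep HOX genes silent outside their domain, and Trithorax proteins keep them active. Of 24 Polycomb genes tested in MM dko, 10 were higher and 7 lower, against 25% and 27.9% of all genes, and 4 were higher and 4 lower with the offsets. In UB dko 0 were higher and 2 lower, against 3.93% of all genes called, and 1 was higher and 5 lower with the offsets, against 9.86% called. Kdm2b, which brings Polycomb complexes to unmethylated CpG-rich DNA, had 159, 180.2 and 259.7 normalized counts in MM dko, against 435, 407 and 426 in MM control (-1.07, SE 0.21, adjusted p = 0.000918). In the UB it had 485, 280.3, 238 and 256 in UB dko, against 568, 760.1, 770.0 and 780.4 in UB control (-1.19, SE 0.25, adjusted p = 0.0256). Cbx2, a chromodomain subunit, was also lower in both, by -1.92 (SE 0.32) in MM dko and -1.27 (SE 0.32, adjusted p = 0.0497) in UB dko. In the MM, Aebp2 and Mtf2, accessory subunits of the methylating complex, rose by 1.53 (SE 0.18) and 1.50 (SE 0.19), and Phc1 fell by 1.32. With the GC offsets Aebp2 (0.28), Mtf2 (-0.20), Cbx2 (-0.61) and Kdm2b (-0.50) gave no call in the MM, while in the UB Kdm2b and Cbx2 stayed called at -1.11 and -1.05. Leaving out 1 UB library removed the UB call of Kdm2b in 5 and that of Cbx2 in 6 of 8 fits.

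Of 19 Trithorax genes and HOX activators tested in MM dko, 5 were higher and 8 lower, against 25% and 27.9% of all genes, and 0 were higher and 3 lower with the offsets. In UB dko 0 were called, and 1 was lower with the offsets. Kmt2d, a histone methyltransferase of enhancers, had 313, 505 and 367 normalized counts in MM dko, against 1170, 1173 and 1234 in MM control (-1.61, SE 0.18, adjusted p = 1.39e-05), and Mllt1 fell by 2.66 (SE 0.35). Kdm6a, which removes the Polycomb mark, rose by 1.32 (SE 0.18) and Ash1l by 0.70 (SE 0.16). With the GC offsets only Mllt1 of these 4 stayed called (-1.08). Cdx1, Cdx2 and Cdx4, which activate HOX genes in the early embryo, were at 0 in every library.

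Of the partners and targets of HOX11 in the mesenchyme 8 were tested in MM dko, and 2 were higher and 3 lower, against 25% and 27.9% of all genes. The offsets gave 2 higher and 0 lower. Eya1 had 2898, 3311 and 3945 normalized counts in MM dko, against 1983, 2049 and 1906 in MM control (0.77, SE 0.16, adjusted p = 0.000987), and Itga8 had 1429, 1498 and 1428, against 644, 781 and 875 (0.92, SE 0.16, adjusted p = 0.00031). Osr1 fell by 1.07 (SE 0.26), and Sall1 by 0.70 (SE 0.14). Pax2 fell by 0.65 (SE 0.16), and with the GC offsets it was higher in MM dko by 1.34 (adjusted p = 0.000334). The offsets left none of the other 4 called, and the value of Osr1 turned to 0.38 (adjusted p = 0.307). Without the offsets the targets Six2 and Gdnf gave no call, at -0.66 (SE 0.44, adjusted p = 0.243) and -0.50 (SE 0.23, adjusted p = 0.081). Six2 had 738, 2643 and 1580 in MM dko, against 2222, 2192 and 3389 in MM control, with a wide spread among the dko libraries.

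Noncoding genes lie among the HOX genes, and 8 of 47 within 5000 bp of the clusters were tested in each tissue. Hoxa11os, which is transcribed antisense to Hoxa11 and overlaps 34.98% of its exon bases, had 8.11, 24.7 and 6.79 normalized counts in MM dko, against 68.0, 68.3 and 53.1 in MM control, and 0 in all UB libraries (-2.43, SE 0.53, adjusted p = 0.00167). Its direction was that of Hoxa11, and with the GC offsets it gave no call (-1.18, adjusted p = 0.0972). Gm53 fell by 1.22 (SE 0.35, adjusted p = 0.00954) in MM dko. In the UB 0 were called, with Hoxaas2 nearest, at 33.4, 20.3, 17.7 and 10.1 in UB dko, against 0, 3.50, 0 and 0.936 in UB control (adjusted p = 0.0536, and 0.0279 with the GC offsets).

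The third noncoding call was Mir10a. The Mir10a hairpin lies upstream of Hoxb4 and that of Mir10b within the annotated Hoxd4, and mature miR-10a and miR-10b target HOX transcripts. Their mature 5p forms are given because they share a seed, bases 2 to 8, in capitals (RefSeq, GRCm38.p6).
miR-10a-5p: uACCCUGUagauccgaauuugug
miR-10b-5p: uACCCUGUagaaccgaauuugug
The forms differ at 1 base, U12A, counted from the 5′ end with the base of miR-10a first. The counts are reads on the hairpin loci, of 110 bp on chromosome 11 and 68 bp on chromosome 2, and do not measure the mature miRNA. Mir10a had 27.6, 70.7 and 56.0 normalized counts in MM dko, against 8.16, 8.12 and 6.40 in MM control (2.72, SE 0.58, adjusted p = 0.00143). It was not called with the GC offsets (1.16, adjusted p = 0.152). Mir10b had 15.9, 23.2, 34.0 and 16.2 in UB dko, against 45.0, 49.9, 45.5 and 106 in UB control, and it gave no call (-1.47, SE 0.50, adjusted p = 0.118) although the groups did not overlap.

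Genes that flank the clusters were read in the same way. Of 20 flanking protein-coding genes tested in MM dko, 8 were higher (Skap2, Hibadh, Cbx1, Cbx5, Atp5g3, Lnpk, Mtx2 and Nfe2l2) and 4 lower (Atp5g1, Snx11, Atp5g2 and Hnrnpa1), against 25% and 27.9% of all genes, and with the offsets 3 were higher and 8 lower. Lnpk, beside HOXD, had 814, 937 and 849 normalized counts in MM dko, against 188, 199 and 187 in MM control (2.18, SE 0.17, adjusted p = 4.63e-07), and 0.12 with the GC offsets. Atp5g2, beside HOXC, fell by 3.34 (SE 0.30), and by 0.97 with the offsets. In the UB 1 of 20 was called, against 3.93% of all genes, and with the offsets 1 was higher and 4 lower. The call was Skap2 beside HOXA, with 249.8, 314, 197 and 294 in UB dko, against 76.3, 144, 90.1 and 138 in UB control (1.23, SE 0.29, adjusted p = 0.0391). Its call was lost with the GC offsets (0.72, adjusted p = 0.170) and in 6 of the 8 fits that left out 1 library.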

How the data were processed

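RNA of FAC-sorted GFP-positive kidney cells was sequenced as single-end reads from NuGen Ovation Solo libraries. The authors trimmed adaptors with Trimmomatic, aligned to GRCm38 with STAR and counted per gene with featureCounts on a GENCODE annotation, and deposited whole-number counts per gene without normalization, 1 table per tissue. Whether counting used strand is not given in the sources used here. No column of per-sample values was left out.

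Counts were tested with edgeR 4.0.16 (limma 3.58.1, R 4.3.3): genes kept by filterByExpr (at least 10 counts, 15 in total), TMM scaling, robust quasi-likelihood fit without covariates, and Benjamini-Hochberg adjustment over all genes, called at an adjusted p under 0.05. SE is the log2 fold change divided by the square root of F. MM and UB controls and the interaction were fitted on the 52110 genes in both tables after joint TMM scaling. Levels are CPM per kilobase of merged exons. Alternatives were DESeq2 1.42.0, limma-voom with sample weights, RLE or library-size scaling, dropping the low-count filter or keeping genes that average 10 counts, offsets for GC content and length (splines with 4 degrees of freedom), a replicate block, and leaving out libraries. The test was also run on simulated counts. These held no GC trend and no library at odds with its label, so that run says nothing on either. Depth was 1443582 to 7493144 counts per library, and intervals and floors of counts cover counting error only. Per the study's methods the kidneys of an embryo were combined before sorting. The titles carry a further number, which some libraries of a group share, and 0 of these numbers are shared between dko and control of a tissue. What it marks is not given, and it cannot be told apart from genotype. P-values measure only the spread between these samples, which may in part be technical.

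Some genes that were measured are not reported here by name, though the counts and sums include them. Members, lists and tests were chosen with earlier results of these data known. Given in full were Hoxb7, Hoxd11 and Hoxa11, members called in a dko comparison or in the interaction, and the 3 highest of each control tissue; of each list the 2 called genes of smallest adjusted p in each direction among those reported; and the called noncoding and flanking genes. Other genes are given by ranges, or were chosen after their values were seen (Hoxd10, Hoxa2, Hoxc4, Hoxaas2, Mir10b, and those nearest a threshold).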

Additional observations from a re-analysis of the deposited data

Results flagged for a closer look

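In 4 of 40 groups of 4 UB libraries 1 library lay far from the others by Dixon's test, and chance gives about 1 in 20. Hoxb6 was lowest in UB control 1, at 454 normalized counts against 617 to 645 in the other controls. Hoxb7 was highest in the library labelled UB dko 1, at 536 against 389 to 412 in the other UB dko libraries. Hoxd9 was highest in UB control 4, at 507 against 391 to 404 in the other controls. Hoxd10 was highest in the library labelled UB dko 1, at 38.2 against 2.03 to 5.81 in the other UB dko libraries. The effect of dko on Hoxc10 differed between the tissues by 3.78 on the log2 scale (adjusted p = 0.0488 by edgeR's test of the interaction), and this call was lost in 15 of 19 alternatives.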

How the results depend on the processing

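In UB dko the count of called HOX genes was 0, and it was 1 with DESeq2 (Hoxa2, higher), 1 with GC content and length offsets (Hoxd3, higher), 3 with voom quality weights (Hoxb4, Hoxb6 and Hoxb8, all lower), and 0 to 1 when 1 library was left out (0 to 1 lower, 0 higher). A pair of alternatives was chosen after seeing the data: UB dko 2 and 4 only gave 4, all lower, and the same with the offsets gave 5, all higher, with Hoxd9 at 1.09 in place of -0.38. In MM dko the counts were 8 higher and 6 lower. They were 15 and 0 with the offsets, 13 and 0 with the replicate block and the offsets together, 3 and 9 with library size only, and 6 to 9 and 2 to 5 (9 to 14 in all) when 1 library was left out, with 9 in all without MM control 1 or MM control 2. The direction turned with the offsets for Hoxa11 (0.16, and 0.15 with the block), Hoxb4 (0.92 and 0.98), Hoxb5 (0.74), Hoxd9 (1.14 and 1.12) and Hoxd11 (-0.12 and -0.12), where at least 1 of the values compared was called. Library size only moved the median of all genes to -0.44 in the MM, against -0.05, and to -0.28 in the UB, against 0.07. The replicate block gave 0 calls in the UB, and 8 higher and 4 lower in the MM, where Hoxa11 (adjusted p = 0.0753) and Hoxd9 (0.0701) were lost. Samples of the same number did not deviate together (correlations of -0.28 to 0.12), so the numbers do not pair them. For the interaction the count of 1 (higher) was 2 with the offsets (2 higher), 3 with the UB dko libraries 1 and 3 only (0 higher, 3 lower), 0 with UB dko 2 and 4 only (0 higher), 0 with library size only (0 higher), and 0 to 2 when 1 library was left out (0 to 1 higher, 0 to 2 lower). Between the control tissues 30 calls became 28 to 30 under other tools, scalings and filters. The causes of these changes were not tested. The depth of 1443582 counts in MM dko 2 limits what can be seen of genes with few counts.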
